A study of Homo sapiens with 16 samples.

Results

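The genes described here are 9 members of the neurotrophin and GDNF signalling families: the ligand BDNF, the receptors NTRK2, NTRK3, NGFR, SORT1 and RET, and the RET co-receptors GFRA1, GFRA2 and GFRA3. They were taken by gene symbol from a table of 19898 genes, and all 9 were in it and passed the filter on low values that left 16984 genes to test. The cells were SH-SY5Y, a human neuroblastoma line, differentiated for 15 days into what the labels call dopamine-like neurons. Culture was in 2D, on conventional dishes, or in 3D, within a scaffold made of silk and collagen. From day 13 some cultures received 1-methyl-4-phenylpyridinium (MPP), a mitochondrial complex I inhibitor, at 1 mM for 48 h, and the others received none. Poly-A selected RNA gave 4 libraries for each combination of culture and treatment, 4 groups in all, in a study of how the growth environment bears on Parkinson's disease features. All groups come from 1 line, and the labels do not say whether replicates were separate cultures, so each p-value measures only the spread between these libraries. The 2D cells were detached with Accutase and the 3D scaffolds were taken whole, so handling and culture cannot be told apart. The labels name no medium or added factor, which is therefore not given in the sources used here.

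Neurotrophins are secreted survival and growth factors that act through 2 kinds of receptor. The Trk receptor tyrosine kinases bind mature neurotrophins, with NTRK2 (TrkB) as the receptor of BDNF and NTRK3 (TrkC) as that of neurotrophin-3, while NGFR (p75) binds all of them and, together with the sorting receptor SORT1 (sortilin), also their precursors. GDNF family ligands bind a GFRA co-receptor anchored in the membrane, and the complex then activates the receptor tyrosine kinase RET. GFRA1 prefers GDNF, GFRA2 neurturin and GFRA3 artemin. Both systems act in sympathetic neurons, the lineage of neuroblastoma, and BDNF and GDNF are known as survival factors of midbrain dopamine neurons.

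The promoters of 4 genes are printed so that receptors which moved in opposite directions can be set side by side: RET against its co-receptors GFRA1 and GFRA3 in 3D, and RET against NTRK2 under MPP. NGFR and GFRA2 are not among them. Each line gives the 250 bases before the most 5′ start site in RefSeq (GRCh38.p14), read 5′ to 3′ along the gene, in lower case. Capitals mark a match on either strand to ACGTG, the core of the hypoxia-response element, TGACG, a cyclic AMP element part, or AGGTCA, the binding part of retinoic acid receptors.
RET, chr10:43076819-43077068, plus strand: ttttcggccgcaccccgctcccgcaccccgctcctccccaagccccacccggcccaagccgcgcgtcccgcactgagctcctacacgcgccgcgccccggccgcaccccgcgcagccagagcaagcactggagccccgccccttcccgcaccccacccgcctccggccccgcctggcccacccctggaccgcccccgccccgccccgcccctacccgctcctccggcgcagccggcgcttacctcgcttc
NTRK2, chr9:84669056-84669305, plus strand: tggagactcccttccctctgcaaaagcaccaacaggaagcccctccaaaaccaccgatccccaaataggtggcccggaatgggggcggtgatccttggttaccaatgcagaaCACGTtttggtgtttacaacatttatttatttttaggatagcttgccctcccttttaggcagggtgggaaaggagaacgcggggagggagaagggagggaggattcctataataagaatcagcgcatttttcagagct
GFRA1, chr10:116274706-116274955, minus strand: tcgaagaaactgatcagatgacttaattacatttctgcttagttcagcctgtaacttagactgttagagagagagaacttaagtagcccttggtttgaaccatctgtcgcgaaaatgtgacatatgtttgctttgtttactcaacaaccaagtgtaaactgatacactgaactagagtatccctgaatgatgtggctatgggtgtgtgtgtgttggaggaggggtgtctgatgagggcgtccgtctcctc
GFRA3, chr5:138274622-138274871, minus strand: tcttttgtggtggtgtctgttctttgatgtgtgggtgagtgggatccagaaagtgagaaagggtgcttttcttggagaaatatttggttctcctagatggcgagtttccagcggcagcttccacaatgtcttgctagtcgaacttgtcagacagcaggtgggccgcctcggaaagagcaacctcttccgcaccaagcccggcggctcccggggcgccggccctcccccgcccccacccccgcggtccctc
The NTRK2 window held 1 match to ACGTG, printed as its reverse complement, and the RET, GFRA1 and GFRA3 windows held none of the 3 motifs. Of 35116 such windows over all genes, 18.5% held ACGTG, 21.2% TGACG and 12.1% AGGTCA. The E-box CANNTG, which is not capitalised, was found 4 times in the GFRA1 window and 1 time in that of GFRA3, but not in those of RET and NTRK2. It was present in 61.8% of all windows. The counts for these 4 genes are of the most 5′ start site alone, and other start sites differed. RET start site 2 held 2 matches to CANNTG, and NTRK2 start sites 2 and 4 held 2 each. NTRK2 start site 2 held 1 match to ACGTG and start site 3 held 2 to TGACG. GFRA1 start site 2 held 1 match to TGACG. RET had the window richest in G and C of the 4, at 79.6%, against 59.2% for GFRA3 and 43.2% for GFRA1. The table of start sites matched 7 of the 9 genes with 19 start sites in all, and counts per gene do not show which start was used.

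In GENCODE release 29 (GRCh38), BDNF lies at chr11:27654893-27722058 and NTRK3 at chr15:87859751-88256768, both on the minus strand, and NTRK2 at chr9:84668551-85027070 on the plus strand. NGFR lies at chr17:49495293-49515017 on the plus strand and SORT1 at chr1:109309568-109397951 on the minus strand. RET lies at chr10:43077027-43130351 on the plus strand, with GFRA1 on the same chromosome at chr10:116056925-116273467 on the minus strand. GFRA3 lies at chr5:138252379-138274671 on the minus strand.

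Libraries held 24589435 to 46359070 recovered reads, with untreated 3D the shallowest group at 24589435 to 34658873. The share of reads from mitochondrially encoded genes was 9.03% to 13.6% (2D) and 3.83% to 7.97% (3D) in untreated cultures, and 1.48% to 1.70% (2D) and 2.53% to 2.99% (3D) in those given MPP, and its part in the results below was not tested. Against the label of dopamine-like neurons, TH, the rate-limiting enzyme of catecholamine synthesis, had mean normalised counts of 341 ± 25.8 (2D) and 5585 ± 823 (3D) in untreated cultures, and 595 ± 91.0 (2D) and 4241 ± 237 (3D) in those given MPP (SD, n = 4). Of 12 dopamine neuron markers 6 were in the table, and SLC6A3, LMX1A, FOXA2, EN1, ALDH1A1 and KCNJ6 were not analysed here. The 6 summed to 4002 to 4268 (2D) and 22017 to 24623 (3D) in untreated cultures, and 3941 to 4265 (2D) and 12034 to 15173 (3D) in those given MPP. DDC, which makes dopamine, had means of 2745 (2D) and 14143 (3D) in untreated cultures, and 2301 (2D) and 2851 (3D) in those given MPP. SLC18A2, the vesicular monoamine transporter, had means of 975 (2D) and 3129 (3D) in untreated cultures, and 1153 (2D) and 6007 (3D) in those given MPP. NR4A2, a factor that midbrain dopamine neurons need, had group means of 2.9 to 7.7. DBH, which makes noradrenaline from dopamine, had group means of 94225 to 148729. Summed over 11 of 12 noradrenergic and sympathoadrenal markers, counts ran from 268405 to 295839 (2D) and 213655 to 246079 (3D) in untreated cultures, and 249241 to 265384 (2D) and 166195 to 213897 (3D) in those given MPP. The 10 general neuron markers summed to 140534 to 155924 (2D) and 86268 to 93141 (3D) in untreated cultures, and 154607 to 174256 (2D) and 80333 to 96627 (3D) in those given MPP. They did not all move alike in untreated cultures. ELAVL3 had means of 14685 (2D) and 14733 (3D), and RBFOX3 had 46.1 (2D) and 123 (3D). The others had lower means in 3D, with ELAVL4 the furthest apart at 21570 (2D) and 4623 (3D). Schwann cell and glia markers (8 of 10 in the table) summed to 704 to 1126 in every library and SOX10, which defines that lineage, had no group mean above 1.8. Mesenchymal neuroblastoma markers (9 of 10) summed to 17345 to 20908 in the 2D libraries and 12453 to 15624 in the 3D libraries. Of these, VIM, FN1, TWIST1 and NOTCH2 had group means of 1393 to 6613. WWTR1, CD44, SNAI2 and YAP1 had group means of 1.3 to 279, and PRRX1 had 0 reads in all groups but MPP-treated 3D. The part of these cell states in the results was not tested, and in bulk RNA fewer cells of a type and less RNA per cell cannot be told apart.

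Between untreated 3D and 2D cultures all 9 genes differed. BDNF, NTRK2, NTRK3, SORT1 and RET fell in 3D, while NGFR and all 3 GFRA co-receptors rose, by 1.48-fold to 1.86-fold in either direction. Calls rest on limma, with p-values adjusted by Benjamini-Hochberg over all tested genes and a threshold of 0.05, and 46.1% of tested genes were called (23.2% higher, 23.0% lower). All 9 genes have a mean of 50 or more. Of 14031 such genes, fitted apart, 7165 were called between untreated 3D and 2D and 6227 under MPP, larger shares than those of all tested genes. The 2 untreated groups did not overlap for 9 of 9 genes, against 39.7% of tested genes. The median log2 change of the 9 genes was -0.56 and that of all tested genes 0.01, and the median absolute change 0.70 against 0.33. In MPP-treated cultures 6 of the 9 genes were called between 3D and 2D, against 38.9% of tested genes: GFRA1, GFRA3 and NGFR higher (19.0% of tested genes) and NTRK2, NTRK3 and RET lower (19.9%). There the groups did not overlap for 7 of 9 genes, BDNF being the 1 that was not called, against 37.5% of tested genes. The comparisons share groups with one another, so their calls are not independent. The 9 genes were chosen with earlier results of these data known, so their shares beside the background are a description.

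MPP changed 8 of the 9 genes in 2D cultures and 4 in 3D cultures. NGFR and RET rose and NTRK2 and GFRA2 fell in both. BDNF, SORT1, GFRA1 and GFRA3 passed the test only in 2D, which does not show that the 2 culture types differ unless the difference itself was called. In 2D, 34.5% of tested genes were called (17.7% higher, 16.9% lower), and in 3D 34.6% (17.0% higher, 17.6% lower). The groups did not overlap for 5 of 9 genes in 2D, against 38.8% of tested genes, and for 4 of 9 in 3D, against 27.6%. The difference between the MPP effects in 3D and in 2D was called for BDNF, NTRK2, SORT1 and GFRA2, 4 of 9 genes, against 15.3% of tested genes (7.00% higher, 8.32% lower). Of the 14031 genes with a mean of 50 or more, 5611 were called with MPP in 2D, 5598 in 3D and 2584 for the difference, again larger shares. The plot of changes shows the 9 genes with their intervals.

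**Figure D1:**
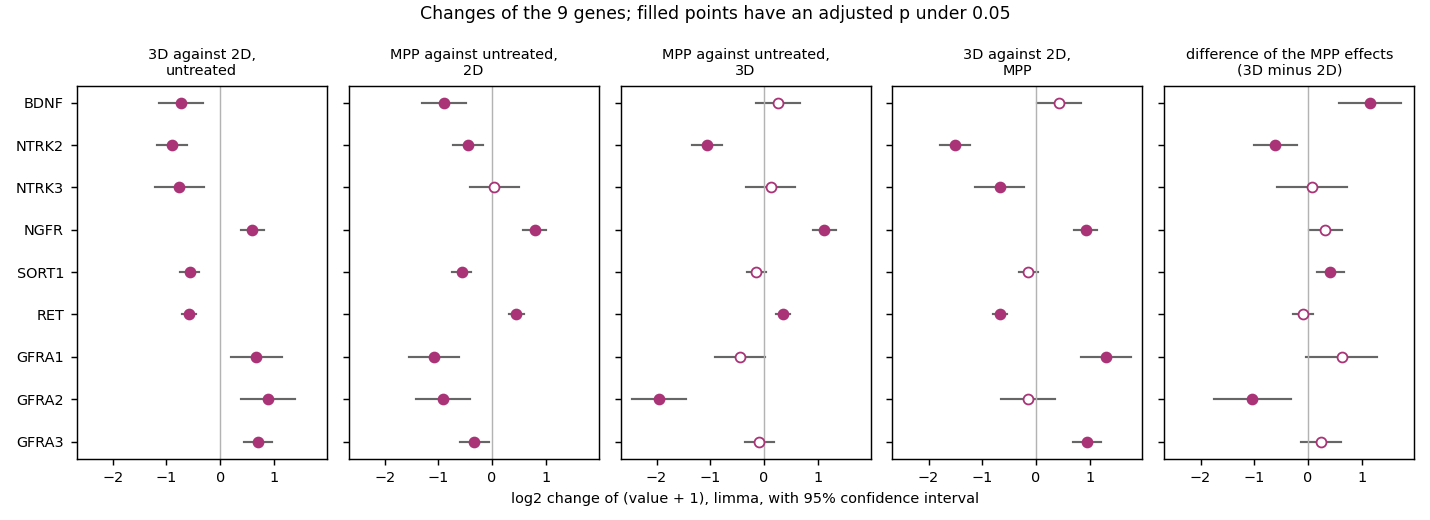
Log2 changes of the 9 genes on the log2(value + 1) scale from limma, in 1 panel per comparison, with bars for the 95% confidence interval and filled points for an adjusted p under 0.05. All 9 points are filled for 3D against 2D without MPP, and GFRA2 in 3D cultures with MPP lies farthest to the left at -1.95.

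BDNF, the ligand among the 9 genes, was present at low counts and was lower both in untreated 3D and in MPP-treated 2D than in untreated 2D. Its normalised read counts were 177, 119, 148 and 133 in untreated 2D and 91.8, 76.3, 85.6 and 89.5 in untreated 3D. They were 68.6, 78.2, 75.7 and 82.7 in MPP-treated 2D and 83.1, 112, 131 and 90.2 in MPP-treated 3D. All 4 untreated 2D libraries lay above all untreated 3D and all MPP-treated 2D libraries, but overlapped MPP-treated 3D. BDNF fell by 0.73 in untreated 3D against 2D on the log2 scale (SE 0.20, limma adjusted p = 0.00406) and fell by 0.90 with MPP in 2D (SE 0.20, limma adjusted p = 0.00114). With MPP in 3D the change was 0.26 (SE 0.20, limma adjusted p = 0.329), with a 95% interval from -0.15 to 0.67. The difference between the MPP effects was 1.16 (SE 0.28, limma adjusted p = 0.00553). Between the MPP-treated groups, BDNF was 0.43 higher in 3D (SE 0.20, limma adjusted p = 0.0924) although the libraries did not overlap, and with quantile normalisation it was called at an adjusted p of 0.0447 with limma. BDNF-AS, transcribed from the other strand, shares 701 exon bases with BDNF and had means of 162 (2D) and 159 (3D) in untreated cultures and 126 (2D) and 127 (3D) in those given MPP. The labels do not say whether the library kit keeps strand, so reads of BDNF and BDNF-AS in those bases cannot be told apart.

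NTRK2, the kinase receptor of BDNF, fell in 3D culture and fell again with MPP, to its lowest level in MPP-treated 3D cultures. Normalised counts were 4914, 3884, 3910.2 and 4772 in untreated 2D and 1853, 2812, 2537 and 2233 in untreated 3D. They were 2976, 2489, 3235 and 4278 in MPP-treated 2D and 1099, 984, 1169 and 1238 in MPP-treated 3D. The MPP-treated 3D libraries lay below all the others, while the other 3 groups overlapped their neighbours in order, MPP-treated 2D lying between the untreated groups. The fall in untreated 3D was -0.90 (SE 0.14, limma adjusted p = 1.28e-05) and that with MPP in 3D -1.06 (SE 0.14, limma adjusted p = 2.87e-06), a 2.08-fold lower level. In MPP-treated cultures 3D was lower than 2D by 2.84-fold, at -1.51 (SE 0.14, limma adjusted p = 1.17e-08). With MPP in 2D, NTRK2 fell by 0.45 (SE 0.14, limma adjusted p = 0.0139), and the limma adjusted p was 0.0535 without untreated 2D replicate 1 and 0.0728 without MPP-treated 2D replicate 2. The difference between the MPP effects, -0.61 (SE 0.19, limma adjusted p = 0.0350), was near the threshold. Its call was lost, at limma adjusted p of 0.0528 to 0.0795, when any 1 of 8 libraries was left out: untreated 2D replicates 2 and 3, untreated 3D replicates 2 and 3, MPP-treated 2D replicates 3 and 4, or MPP-treated 3D replicates 1 and 2. It was also lost with equal nuclear totals (limma adjusted p = 0.0584) and with robust empirical Bayes (limma adjusted p = 0.0525). Counts per gene do not separate the full-length kinase from the truncated forms of NTRK2.

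NTRK3, the receptor of neurotrophin-3, followed the culture type and did not pass the test for MPP. Its normalised counts were 122, 132, 123 and 142 in untreated 2D and 150.2, 131, 131 and 121 in MPP-treated 2D. In untreated 3D they were 73.9, 98.6, 92.6 and 49.2, and in MPP-treated 3D 100.2, 62.5, 98.2 and 76.4. Every 2D library lay above every 3D library, and within a culture type the untreated and MPP-treated libraries overlapped. NTRK3 fell by 0.76 in untreated 3D against 2D (SE 0.22, limma adjusted p = 0.00730) and fell by 0.68 in MPP-treated 3D against 2D (SE 0.22, limma adjusted p = 0.0181). The second of these had a limma adjusted p of 0.0539 without MPP-treated 2D replicate 1 and 0.0703 without MPP-treated 3D replicate 2. The 95% interval of the MPP effect ran from -0.42 to 0.50 in 2D and from -0.33 to 0.58 in 3D, which bounds a change at these counts of 33 to 186 reads per library.

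NGFR, the p75 receptor, moved against NTRK2: it was higher in 3D than in 2D and higher with MPP than without. Normalised counts were 3553, 3187, 3221 and 3405 in untreated 2D and 4716, 5273, 5158 and 5123 in untreated 3D. They were 5395, 6763, 5509.8 and 5627 in MPP-treated 2D and 14185, 11109.6, 8634 and 10879 in MPP-treated 3D. No 2 groups overlapped, and the order from low to high was 2D then 3D untreated, followed by 2D then 3D under MPP. NGFR rose by 0.60 in untreated 3D against 2D (SE 0.10, limma adjusted p = 5.66e-05) and by 0.93 in MPP-treated 3D against 2D (SE 0.10, limma adjusted p = 2.76e-07). MPP raised it by 0.80 in 2D (SE 0.10, limma adjusted p = 3.51e-06) and by 1.12 in 3D (SE 0.10, limma adjusted p = 2.03e-08), a 2.18-fold rise. The difference between these MPP effects was 0.33 (SE 0.15, limma adjusted p = 0.144), with a 95% interval from 0.02 to 0.63. It was called without MPP-treated 3D replicate 3 (limma adjusted p = 0.0190) and with equal nuclear totals (limma adjusted p = 0.0351). AC015656.1 and AC006487.1, loci on the other strand, share 924 and 202 exon bases with NGFR and are not analysed here, and without strand their reads in those bases cannot be told apart from NGFR's.

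SORT1, the sorting receptor that pairs with NGFR to bind neurotrophin precursors, was highest in untreated 2D and lower in the other 3 groups. Its counts were 5968, 5454, 5420.4 and 6183 in untreated 2D and 3641, 4511, 3736 and 3724 in untreated 3D. They were 3835, 3761, 3726 and 4274 in MPP-treated 2D and 3112, 3259, 3963 and 3848 in MPP-treated 3D. The untreated 2D libraries lay above all others, and the other 3 groups overlapped one another. SORT1 fell by 0.56 in untreated 3D against 2D (SE 0.086, limma adjusted p = 1.25e-05) and fell by 0.56 with MPP in 2D (SE 0.086, limma adjusted p = 2.63e-05). With MPP in 3D the change was -0.14 (SE 0.086, limma adjusted p = 0.215), with a 95% interval from -0.32 to 0.04. The difference between the MPP effects was 0.42 (SE 0.12, limma adjusted p = 0.0199), with a limma adjusted p of 0.0506 without MPP-treated 3D replicate 4.

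**Figure D2:**
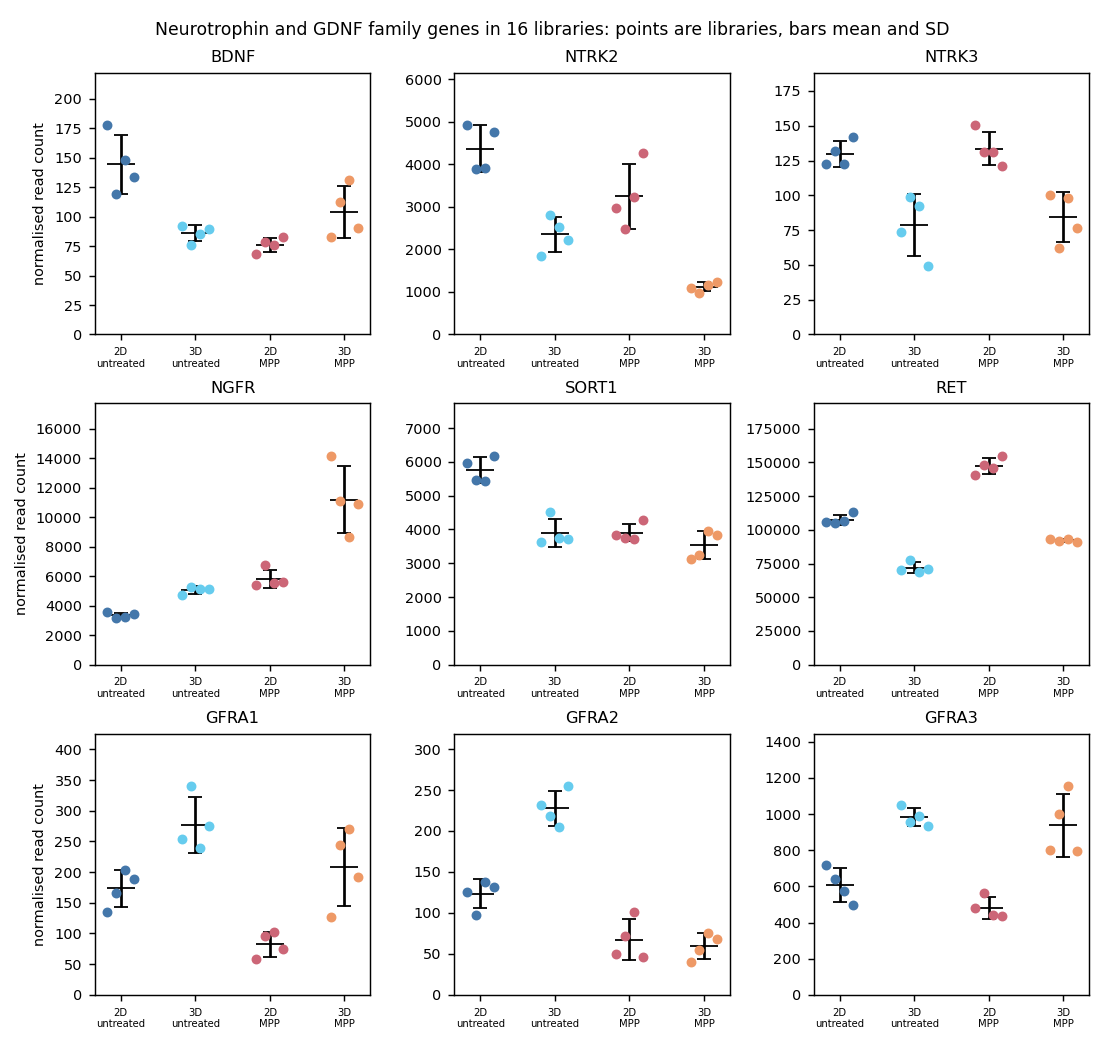
Normalised read counts of the 9 genes by group, with 1 point per library and bars for the mean and SD over 4 libraries, each panel on its own axis from 0. NGFR and RET have 4 groups that do not overlap, with NGFR highest in MPP-treated 3D at 8634 to 14185 and RET highest in MPP-treated 2D at 140846 to 154947.

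RET, the kinase that GDNF family ligands activate, was the most abundant of the 9 genes, lower in 3D than in 2D and higher with MPP in both. Normalised counts were 105553, 105069.9, 106495 and 113037 in untreated 2D and 70531, 77876, 68615 and 70826 in untreated 3D. They were 140846, 147927, 145505 and 154947 in MPP-treated 2D and 93092, 91607, 93012 and 91053 in MPP-treated 3D. No groups overlapped, and from low to high they were untreated 3D, MPP-treated 3D, untreated 2D and MPP-treated 2D. RET fell by 0.58 in untreated 3D against 2D (SE 0.064, limma adjusted p = 1.55e-07) and fell by 0.68 in MPP-treated 3D against 2D (SE 0.064, limma adjusted p = 2.39e-08). MPP raised it by 0.45 in 2D (SE 0.064, limma adjusted p = 1.07e-05) and by 0.36 in 3D (SE 0.064, limma adjusted p = 1.47e-04). The difference between the MPP effects was -0.09, with a 95% interval from -0.28 to 0.09 (limma adjusted p = 0.543). With quantile normalisation the 2 MPP effects became 1.07 and 0.98. As a share of all reads, RET took 0.281% to 0.308% (2D) and 0.187% to 0.215% (3D) in untreated cultures, and 0.417% to 0.443% (2D) and 0.264% to 0.275% (3D) in those given MPP.

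GFRA1, the co-receptor preferred by GDNF, was higher in 3D and lower with MPP in 2D. Its counts were 134, 167, 204 and 188 in untreated 2D and 253, 340.5, 239 and 274 in untreated 3D. They were 58.1, 95.2, 102 and 73.9 in MPP-treated 2D and 126, 245, 270.4 and 191 in MPP-treated 3D. The MPP-treated 2D libraries lay below all others and the untreated 3D libraries above all untreated 2D libraries, while MPP-treated 3D overlapped both untreated groups. GFRA1 fell by 1.08 with MPP in 2D (SE 0.23, limma adjusted p = 7.74e-04) and was 1.30 higher in 3D than in 2D under MPP (SE 0.23, limma adjusted p = 8.77e-05). In 3D the MPP change was -0.45 (SE 0.23, limma adjusted p = 0.129), and the difference between the MPP effects was 0.63 (SE 0.32, limma adjusted p = 0.204). The rise in untreated 3D against 2D, 0.68 (SE 0.23, limma adjusted p = 0.0183), had a limma adjusted p of 0.0690 without untreated 2D replicate 1 and 0.0647 without untreated 3D replicate 2.

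GFRA2, the co-receptor preferred by neurturin, was highest in untreated 3D and fell with MPP in both culture types. Normalised counts were 126, 97.7, 138 and 131 in untreated 2D and 232, 218, 205 and 255 in untreated 3D. They were 50.1, 71.9, 101 and 46.6 in MPP-treated 2D and 39.7, 54.4, 75.9 and 68.1 in MPP-treated 3D. The untreated 3D libraries lay above all others, MPP-treated 2D overlapped untreated 2D through replicate 3 at 101, and the 2 MPP-treated groups overlapped. With MPP in 3D GFRA2 fell by 1.95 (SE 0.25, limma adjusted p = 1.98e-06), a 3.87-fold lower level and the change of greatest size among the 9 genes in any comparison. With MPP in 2D it fell by 0.92 (SE 0.25, limma adjusted p = 0.00588), and it rose by 0.89 in untreated 3D against 2D (SE 0.25, limma adjusted p = 0.00510). Between the MPP-treated groups the change was -0.15, with a 95% interval from -0.66 to 0.36 (limma adjusted p = 0.669). The difference between the MPP effects was -1.04 (SE 0.35, limma adjusted p = 0.0461). That call was lost, at limma adjusted p of 0.0529 to 0.112, without any 1 of 11 libraries: untreated 2D replicates 1, 2, 3 and 4, untreated 3D replicates 1, 2 and 4, MPP-treated 2D replicates 2 and 3, and MPP-treated 3D replicates 1 and 2. It was lost as well with no filter (0.0650), equal nuclear totals (0.0694) and quantile normalisation (0.0681), all limma adjusted p.

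GFRA3, the artemin co-receptor, was higher in 3D than in 2D with or without MPP. Its counts were 717, 640.4, 575 and 497 in untreated 2D and 1048, 957, 991 and 935 in untreated 3D. They were 481, 566, 441 and 435 in MPP-treated 2D and 799, 1001, 1156 and 795 in MPP-treated 3D. All 3D libraries lay above all 2D libraries, and the untreated and MPP-treated libraries overlapped within each culture type. GFRA3 rose by 0.70 in untreated 3D against 2D (SE 0.13, limma adjusted p = 1.10e-04) and by 0.95 in MPP-treated 3D against 2D (SE 0.13, limma adjusted p = 4.00e-06). Its fall with MPP in 2D, -0.33 (SE 0.13, limma adjusted p = 0.0494), lost its call without any 1 of 6 libraries, at limma adjusted p of 0.0643 to 0.175: untreated 2D replicates 1, 2 and 3 and MPP-treated 2D replicates 1, 3 and 4. It was also lost with no filter (0.0553), equal library totals (0.185), quantile normalisation (0.0726) and only the groups compared (0.0506), all limma adjusted p. With MPP in 3D the change was -0.08 (SE 0.13, limma adjusted p = 0.648).

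Since NGFR and NTRK2 moved in opposite directions, the balance between them was read within each library, where scaling between libraries plays no part. The NGFR to NTRK2 ratio of normalised counts was 0.723, 0.821, 0.824 and 0.714 in untreated 2D and 2.55, 1.88, 2.03 and 2.29 in untreated 3D. It was 1.81, 2.72, 1.70 and 1.32 in MPP-treated 2D and 12.9, 11.3, 7.39 and 8.79 in MPP-treated 3D. NTRK2 thus had more reads than NGFR in untreated 2D alone of the 4 groups, the ratio of untreated 3D overlapped that of MPP-treated 2D, and MPP-treated 3D lay above all. The ratio is a description, holds the lengths of both genes and includes any reads of the loci that overlap NGFR on the other strand.

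**Figure D3:**
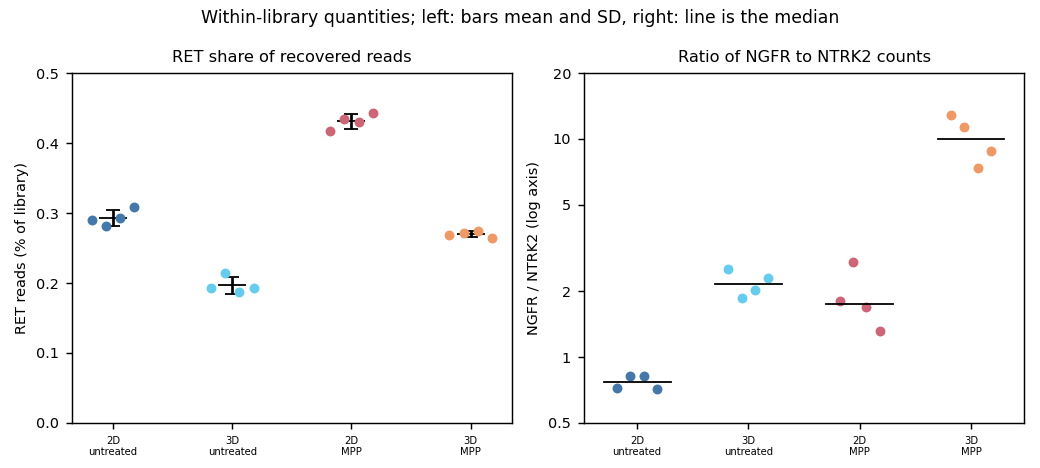
Left, reads of RET as a percentage of all recovered reads of a library, with bars for the mean and SD. Right, the ratio of NGFR to NTRK2 normalised counts on a log axis, with a line at the median; the MPP-treated 3D libraries sit at 7.39 to 12.9 and the untreated 2D libraries at 0.714 to 0.824.

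Levels of different genes were compared per kilobase of exon (union of exons in GENCODE release 29). The union pools the exons of all annotated transcripts, which a single transcript need not hold, so the order of genes depends on it. It was 26750 bases for NTRK3, 20363 for NTRK2, 4150 for NGFR and 2039 for GFRA3. By mean count in untreated 2D, NTRK2 (4370) stood above NGFR (3342) and GFRA3 (607). In untreated 2D the mean normalised count per kilobase was 15561 for RET, 805 for NGFR, 628 for SORT1, 298 for GFRA3 and 215 for NTRK2. GFRA2 had 21.6, BDNF 18.7, GFRA1 17.9 and NTRK3 4.84. RET ranked 37 of 18936 genes with a length in untreated 2D, 67 in untreated 3D, 26 in MPP-treated 2D and 47 in MPP-treated 3D. NGFR ranked 1846 in untreated 2D and 373 in MPP-treated 3D, where it had 2699 per kilobase. In untreated 2D RET thus stood above its co-receptors, of which GFRA3 had the highest level per kilobase.

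A list of 68 other tested genes of both pathways was grouped by role. It was chosen with earlier results of these data known, so its shares are a description and not a test. Of these, 38 were called between untreated 3D and 2D (13 higher, 25 lower) and 40 between MPP-treated 3D and 2D (8 higher, 32 lower), 55.9% and 58.8% of them, against 46.1% and 38.9% of all tested genes. MPP gave 27 calls in 2D (18 higher, 9 lower) and 26 in 3D (13 higher, 13 lower), 39.7% and 38.2% against 34.5% and 34.6% of all tested genes. The difference between its effects gave 12 (1 higher, 11 lower), 17.6% against 15.3%. The median log2 changes were -0.17 and -0.21 for 3D against 2D without and with MPP, 0.07 and -0.08 for MPP in 2D and in 3D, and -0.12 for the difference. Of 14031 genes with a mean of 50 or more, fitted apart, 7165 were called in untreated 3D against 2D and 6227 under MPP. With MPP 5611 were called in 2D and 5598 in 3D, and 2584 for the difference. These are larger shares than those of all tested genes. For MPP and for the difference, the share of the list called was not above them. Over all tested genes, 23.2% were called higher and 23.0% lower in 3D against 2D without MPP, 19.0% and 19.9% with MPP, 17.7% and 16.9% for MPP in 2D, and 17.0% and 17.6% for MPP in 3D, and the counts by role below stand beside these shares. The plot of pathway genes shows them by role.

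**Figure D4:**
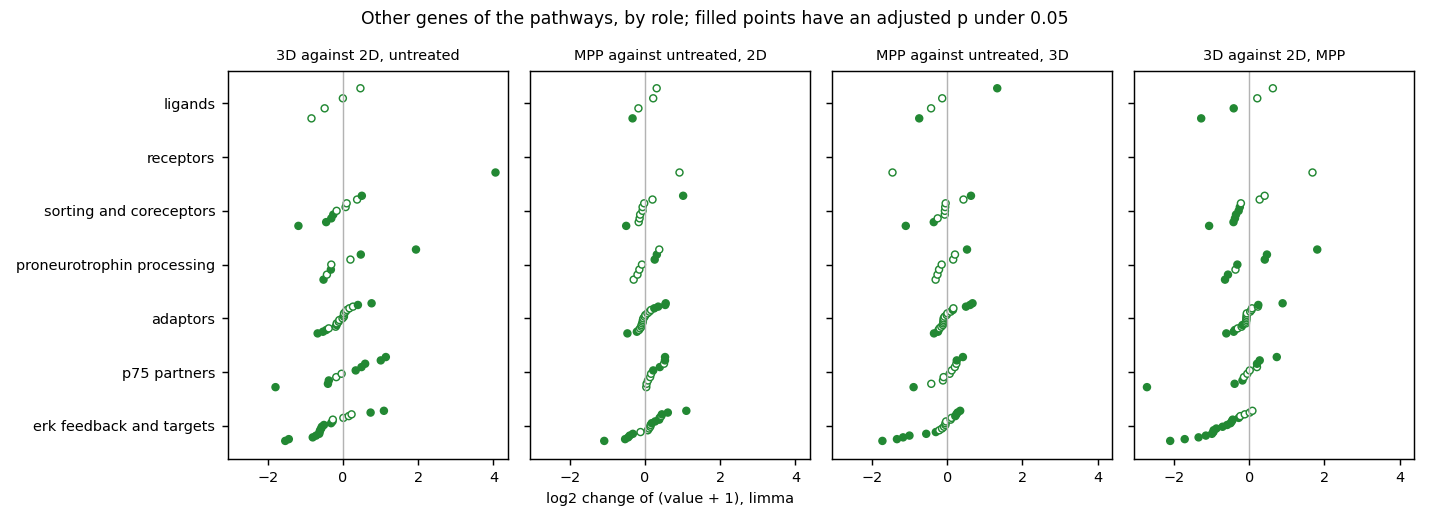
Log2 changes on the log2(value + 1) scale from limma of 68 other genes of the 2 pathways in 4 comparisons, with 1 point per gene and filled points for an adjusted p under 0.05. Of the filled points of ERK feedback and target genes for 3D against 2D, 12 of 14 lie left of 0 without MPP and 14 of 14 with it. The lists were chosen with earlier results of these data known.

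Among the other ligands of the list, 4 were tested, and NTF3 and GDNF fell below the filter. None of the 4 was called between untreated 3D and 2D, 2 fell between MPP-treated 3D and 2D, and MPP gave 1 fall in 2D and 1 rise and 1 fall in 3D. NRTN (neurturin), which binds GFRA2, had a mean of 509 ± 40.0 in untreated 2D and fell by 0.33 with MPP in 2D (SE 0.11, limma adjusted p = 0.0267) and fell by 0.74 in 3D (SE 0.11, limma adjusted p = 2.55e-05). The fall in 2D had a limma adjusted p of 0.0660 or 0.0792 when untreated 2D replicate 1 or 4 was left out, of 0.0865 or 0.0835 when MPP-treated 2D replicate 1 or 3 was left out, and of 0.120 with equal library totals. NTF4, a second NTRK2 ligand, was lower in 3D than in 2D under MPP, at -1.28 (SE 0.41, limma adjusted p = 0.0171). That call was lost without MPP-treated 2D replicate 1 (-1.11, limma adjusted p = 0.0619), MPP-treated 2D replicate 3 (-1.14, limma adjusted p = 0.0568) or MPP-treated 3D replicate 3 (-0.85, limma adjusted p = 0.0797). PSPN (persephin), chosen after its values were seen, rose by 1.33 with MPP in 3D (SE 0.29, limma adjusted p = 0.00113).

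GFRA4, the persephin co-receptor, chosen after its values were seen, rose from a mean of 3.0 to 44.0 in untreated 3D, a log2 change of 4.05 (SE 0.86, limma adjusted p = 5.53e-04) that was 2.67 with a pseudocount of 5. GFRA4 and PSPN have low counts, at which changed genes in simulated data were often missed.

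Of 9 other sorting receptors and co-receptors, 1 rose and 4 fell in untreated 3D and 6 fell in 3D under MPP, while MPP gave 1 rise and 1 fall in 2D and 1 rise and 2 falls in 3D, where 23.0% (untreated) and 19.9% (MPP) of all tested genes were lower in 3D. SORCS1, a relative of SORT1, fell by 1.19 in 3D without MPP (SE 0.091, limma adjusted p = 5.45e-10) and fell by 1.07 with MPP (SE 0.091, limma adjusted p = 4.72e-09). Its relative SORCS2 differed between the MPP effects, at -0.45 (SE 0.14, limma adjusted p = 0.0379). That call was lost with equal nuclear totals (limma adjusted p = 0.108), and at 0.0550 to 0.0873 without untreated 2D replicate 1 or 4, untreated 3D replicate 1, 2 or 4, MPP-treated 2D replicate 3 or 4, or MPP-treated 3D replicate 1 or 2. SORL1, another relative, rose by 0.50 in untreated 3D (limma adjusted p = 0.00471). RTN4R, the Nogo receptor with which NGFR forms a complex, rose with MPP by 1.01 in 2D (SE 0.091, limma adjusted p = 2.20e-08) and by 0.63 in 3D (SE 0.091, limma adjusted p = 1.28e-05). SORCS3 fell by 0.50 with MPP in 2D (limma adjusted p = 0.0142, and 0.0546 without MPP-treated 2D replicate 2) and fell by 1.10 in 3D (limma adjusted p = 8.20e-06). Of 7 genes that process the precursors, 2 rose and 2 fell in untreated 3D and 3 rose and 3 fell in 3D under MPP, while with MPP 2 rose in 2D and 1 rose in 3D, where 46.1% (untreated) and 38.9% (MPP) of all tested genes were called between 3D and 2D, and 34.5% (2D) and 34.6% (3D) with MPP. PCSK6, a proprotein convertase, rose in 3D by 1.94 without MPP (SE 0.11, limma adjusted p = 1.28e-12) and by 1.81 with MPP (SE 0.11, limma adjusted p = 7.53e-12). FURIN, the convertase that cleaves proneurotrophins in the Golgi, fell by 0.52 in untreated 3D (SE 0.081, limma adjusted p = 1.81e-05). PCSK2, a convertase of neuropeptide granules, was lower in 3D under MPP, at -0.65 (limma adjusted p = 0.0132, and 0.0630 without MPP-treated 2D replicate 1 or 0.0546 without MPP-treated 3D replicate 1). PLAT, the plasminogen activator, whose product plasmin cleaves the BDNF precursor, rose with MPP by 0.31 in 2D (SE 0.10, limma adjusted p = 0.0233) and by 0.53 in 3D (SE 0.10, limma adjusted p = 4.03e-04). The rise in 2D was not called without untreated 2D replicate 3 (limma adjusted p = 0.0747) or 4 (0.0734), or MPP-treated 2D replicate 1 (0.0714) or 2 (0.0906).

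Of 19 adaptors, 2 rose and 4 fell in 3D against 2D, with and without MPP, while with MPP 4 rose and 2 fell in 2D and 4 rose and 3 fell in 3D. Of all tested genes, 46.1% and 38.9% were called between 3D and 2D without and with MPP, and 34.5% and 34.6% with MPP in 2D and 3D, so the adaptors called were no larger a share than the background for culture and near it for MPP. GAB2, a docking protein downstream of receptor kinases, rose in all 4 comparisons, by 0.55 (MPP in 2D) to 0.89 (3D against 2D with MPP), with limma adjusted p of 1.67e-06 or less. SHC1, an adaptor that binds both Trk receptors and RET, fell by 0.68 in 3D without MPP (limma adjusted p = 2.78e-08) and fell by 0.61 with MPP (limma adjusted p = 1.92e-07). KIDINS220, a scaffold of Trk receptors, changed by -0.47 with MPP in 2D (limma adjusted p = 0.00126) and by -0.35 in 3D (limma adjusted p = 0.0112, and 0.0520 with equal library totals). Among 10 partners of NGFR, 5 rose and 3 fell in untreated 3D, 3 rose and 3 fell in 3D under MPP, 4 rose with MPP in 2D, and 2 rose and 1 fell with MPP in 3D. In 3D against 2D, 23.2% of all tested genes were higher and 23.0% lower without MPP, and 19.0% and 19.9% with it. MAGED1, which binds its intracellular domain, rose by 1.14 in untreated 3D (SE 0.058, limma adjusted p = 3.63e-13) and fell by 0.89 with MPP in 3D (SE 0.058, limma adjusted p = 5.64e-11). Its MPP effects differed by -0.93 between 3D and 2D (SE 0.082, limma adjusted p = 3.34e-08). Mean counts were 16464 and 36264 in the untreated 2D and 3D groups, and 16902 and 19494 in the MPP-treated ones. NDN (necdin) fell in untreated 3D from a mean of 90.6 ± 20.3 to 27.2 ± 11.6 (limma adjusted p = 3.57e-04), and in 3D against 2D under MPP fell by 2.72 (limma adjusted p = 3.82e-06). ZNF274, a zinc finger protein, rose by 0.53 with MPP in 2D (limma adjusted p = 1.58e-04), BEX3, an adaptor of NGFR death signalling, by 0.42 with MPP in 3D (limma adjusted p = 0.00846), and PRDM4, a transcription factor bound by NGFR, by 0.73 in 3D against 2D under MPP (limma adjusted p = 1.14e-07).

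The 18 feedback and target genes of the ERK pathway, through which both Trk receptors and RET signal, were mostly lower in 3D: 12 fell and 2 rose without MPP, where 23.0% of all tested genes were lower and 23.2% higher, and 14 fell and none rose with MPP, where 19.9% were lower and 19.0% higher. Their median log2 changes were -0.54 and -0.65, against 0.01 and 0.0088 over all tested genes. Since the list was chosen with earlier results of these data known, these counts and medians only describe it. SPRY1, a feedback inhibitor, fell by 1.54 in 3D without MPP (SE 0.19, limma adjusted p = 8.47e-07) and fell by 2.10 with MPP (SE 0.19, limma adjusted p = 1.15e-08). VGF, a neuropeptide precursor induced by neurotrophins, went the other way, rising by 1.09 in untreated 3D (SE 0.085, limma adjusted p = 6.62e-10) and by 1.10 with MPP in 2D (SE 0.085, limma adjusted p = 1.95e-09). With quantile normalisation the rise of VGF with MPP in 2D was 2.19. EGR1, an immediate early target, fell by 1.09 with MPP in 2D (SE 0.10, limma adjusted p = 5.07e-08) and fell by 1.34 in 3D (SE 0.10, limma adjusted p = 1.29e-09). DUSP6, the ERK phosphatase, rose by 0.34 with MPP in 3D (SE 0.061, limma adjusted p = 1.23e-04). The MPP effect was higher in 3D than in 2D for ETV1, an ETS factor, by 0.52 (SE 0.12, limma adjusted p = 0.00304), and lower for VGF (limma adjusted p = 2.37e-06). Under MPP in 2D 7 of the 18 rose and 5 fell, and in 3D 4 rose and 6 fell.

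The 2 genes whose profile over the 16 libraries was most like that of each of the 9 genes were found by Pearson's r of log2(value + 1) among 13386 genes, as a description. The libraries fall into 4 groups and share their scaling, so r follows the group means in large part. For RET they were TP53INP2 (r = 0.990) and CACNA2D2 (r = 0.988), and for NTRK2 SLC4A8 (r = 0.984) and PARP14 (r = 0.974). NGFR was most like SLC44A2 (r = 0.980) and C1orf229 (r = 0.973), SORT1 most like CENPF (r = 0.978) and CENPE (r = 0.963), and BDNF most like EXO1 (r = 0.941) and CDCA5 (r = 0.935). NTRK3 was most like NID1 (r = 0.947) and ETS1 (r = 0.935). For the co-receptors they were GATA2 (r = 0.942) and TOP3A (r = 0.918) for GFRA1, MRPL23 (r = 0.945) and RIPK1 (r = 0.943) for GFRA2, and SDC2 (r = 0.957) and LYN (r = 0.949) for GFRA3. CENPF, CENPE, EXO1 and CDCA5 are genes of mitosis and DNA replication or repair. A link of SORT1 or BDNF to these processes was not tested, and r does not compare the size of changes.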

How the data were processed

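RNA from 16 SH-SY5Y libraries, 4 per group by the sample titles, was measured by sequencing. The authors deposited a signal that cannot fall below 0: gene read counts, each library scaled by its own size factor. The submitters' processing notes list STAR, featureCounts, DESeq2, FastQC and CASAVA 1.8.2, and build GRCh38.p13. Their settings and the annotation were not given in the sources used here. For 100.0% of the values, within 0.01 reads, whole reads were recovered. Every gene in the table had at least 11 reads over the libraries.

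Tests used limma 3.58.1 (R 4.3.3), with a trend of the variance on the mean, on log2(value + 1). The filter kept 16984 genes that reached 10 in 4 or more libraries, and 1 fit held all 16 libraries. The design set limma for normalised values, and it was kept after reads were recovered. On this scale the fold change of a low gene is understated. edgeR 4.0.16 and DESeq2 1.42.0 on the recovered reads, a replicate block, 3 other scalings, other pseudocounts and filters, robust empirical Bayes, only the groups compared and leaving out each library were alternatives. Libraries within a group differed by more than sampling noise in all 24 pairs (chi-square per degree of freedom at least 6.58). The scripts were tested on simulated data, where changed genes with a mean under 50 were often missed; the recovery required was limited to genes with a mean of 50 or more after this was seen.

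The 9 genes and the pathway and marker lists were chosen with earlier results of these data known. Some genes of the pathways are not reported here and were left out of the lists. All 9 genes are named in every comparison. Of each pathway list, the called genes of highest and of lowest change with a mean of 50 or more are named. Any other gene named was picked with its values known, as the text says.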

Additional observations from a re-analysis of the deposited data

Results flagged for a closer look

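In 2 of 36 sets of 4 libraries (9 genes in 4 groups) a single library stood apart from the other 3, by a gap that as a share of the whole range passed Dixon's 95% critical value. Chance alone marks about 1 in 20 such sets. NGFR was 6763 in MPP-treated 2D replicate 2, against 5395 to 5627 in the others, a gap of 0.830 of the range. SORT1 was 4511 in untreated 3D replicate 2, against 3641 to 3736, a gap of 0.891 of the range.

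The MPP effect differed between 3D and 2D cultures for 4 genes by the limma test of the difference itself. It was 1.16 higher in 3D on the log2 scale for BDNF and 0.42 higher for SORT1, both of which fell with MPP in 2D. For NTRK2 it was -0.61 and for GFRA2 -1.04, both of which fell with MPP in both culture types. The count of 4 became 2 without untreated 2D replicate 2 or 3, untreated 3D replicate 2, MPP-treated 2D replicate 3, or MPP-treated 3D replicate 1 or 2. Calls of the difference over all tested genes, 2602 in the main fit, were also fewer in these fits, at 2175 to 2573. The call was lost without any 1 of 8 libraries for NTRK2 (limma adjusted p of 0.0528 to 0.0795), without any 1 of 11 for GFRA2 (0.0529 to 0.112) and without MPP-treated 3D replicate 4 for SORT1 (0.0506), while that of BDNF was kept without any 1 of the 16.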

How the results depend on the processing

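Each of 45 changes (9 genes in 5 comparisons) was recomputed under every alternative that could be fitted, 963 values in all. Of these, 909 kept their direction and side of the threshold, 41 lost the call, 3 gained it and 10 changed sign, and 30 of the 45 changes kept both throughout. The sign changes were all of uncalled values. NTRK3 with MPP in 2D became -0.0036 with equal nuclear totals and -0.044 with quantile normalisation, and leaving out 1 library gave -0.016 (without MPP-treated 2D replicate 1) to 0.086 (without untreated 2D replicate 4). Leaving out 1 library gave NTRK3 with MPP in 3D -0.083 to 0.26 and its difference of effects -0.12 to 0.21, both lowest without untreated 3D replicate 4 and highest without MPP-treated 3D replicate 2, and the difference was also negative without MPP-treated 3D replicate 1, at -0.0099. GFRA3 with MPP in 3D became 0.011 with equal library totals, and the RET difference 0.0094 with equal nuclear totals. GFRA2 in MPP-treated 3D against 2D ran from -0.30 without MPP-treated 2D replicate 4 to 0.067 without MPP-treated 2D replicate 3, and was 0.028 without MPP-treated 3D replicate 1. The cause was not tested.

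Leaving out 1 library gave 8 to 9 called genes of the 9 for untreated 3D against 2D, 6 to 8 for MPP in 2D, 4 for MPP in 3D, 5 to 6 for MPP-treated 3D against 2D and 2 to 5 for the difference of effects. The lowest of these, 2, came without untreated 2D replicate 2 or 3, untreated 3D replicate 2, MPP-treated 2D replicate 3, or MPP-treated 3D replicate 1 or 2. In the same order, the main fit called 7830, 5866, 5879, 6615 and 2602 of all 16984 tested genes. The fits without 1 library tested 16903 to 16944 genes. They called 7013 to 7597, 4766 to 5506, 5245 to 5697, 5677 to 6292 and 2142 to 2911 of them. edgeR and DESeq2 both called 9, 8, 4, 6 and 4 of the 9 genes. Over all tested genes edgeR called 7722, 5876, 5815, 6677 and 2571. DESeq2 called 8060, 6311, 6171, 7016 and 3041. The replicate block also gave 9, 8, 4, 6 and 4 of the 9 genes, and 7634, 5675, 5706, 6451 and 2436 over all. No pairing of the samples by number was seen, which does not show that there was none. Same-numbered libraries had correlations of -0.115 to 0.0896 over 24 pairs and were best with their own number in 12 of 48 looks. Of the pathway genes, only the called changes named in the text were followed in this way, so no call could be gained. For these, 880 of 906 values kept direction and side and 26 lost the call, with alternatives chosen after seeing the data. The stability of the other changes of the 68 genes is not given by these values. Over the 68 genes the count of calls for the difference, 12, was 7 without untreated 2D replicate 4 or MPP-treated 2D replicate 3. VGF's difference of effects was -1.75 with quantile normalisation.

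With equal library totals the median change of all tested genes with MPP in 2D moved to 0.12, and calls went from 2998 higher and 2868 lower to 4361 and 1846; with MPP in 3D they went from 2882 and 2997 to 4152 and 2142, or with equal nuclear totals to 3594 and 2464. Equal nuclear totals turned 3932 and 3898 into 3061 and 4937 for untreated 3D against 2D, and 1189 and 1413 into 2128 and 1053 for the difference. BDNF, NTRK3, GFRA1 and GFRA2, with the fewest reads of the 9 genes, have the widest intervals.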
